A study of Rattus norvegicus with 4 samples.

Results

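The microRNA probe codes that gave a signal on every array of both rat strains are described here. They were chosen by their measured signal: an M code, printed in 3 spots, was taken as detected where 2 or more of those spots had a signal-to-noise score above 2, and a member had to be detected on all 4 arrays. Of the 406 M codes, 57 (14.0%) met this rule, and 237 were detected on no array. The rule therefore fixed that these codes were bright on every array, and their brightness against the other codes is given as a description, with no test.

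MicroRNAs are short non-coding RNAs that are cut from hairpin precursors and loaded onto Argonaute proteins. They pair mainly through their seed, near the 5′ end, with sites in target mRNAs, and they lower the stability or the translation of those mRNAs. In most tissues a few microRNAs make up most of the microRNA pool, and several of them have been studied in insulin secretion and insulin action.

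Male GK (Goto-Kakizaki) rats, a model of type 2 diabetes bred from Wistar rats for poor glucose tolerance, were compared with normal male Wistar rats, with 2 single-colour arrays for each strain. Both strains had free access to standard chow over 14 weeks, and the labels state no age and name no tissue. GK and Wistar rats differ in genetic background as well as in glucose tolerance, and these cannot be told apart here. The labels do not say whether the 2 arrays of a strain came from separate animals, so p-values reflect just the spread among these 4 arrays, which may be technical.

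No table used here ties a code to a microRNA name or sequence, so each member is called by its code and no tissue marker could be checked. The signal of a code is the mean over its 3 spots of the foreground mean minus the local background mean in the Cy5 channel, in linear scanner units and not scaled between arrays. Different probes can bind and label with different efficiency, so the order of codes is an order of signals on these arrays. The M codes summed to 608067 and 614405 units on GK replicates 1 and 2, and to 835271 and 1093430 on Wistar replicates 1 and 2. The arrays detected 72, 67, 125 and 161 M codes in the same order, so the members made up 79.2% and 85.1% of the codes detected on the GK arrays, against 45.6% and 35.4% in Wistar.

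The members were unevenly spread over the code numbers. All 9 codes from M1 to M9 were members, against 17 of the 91 codes from M10 to M100, 12 of 100 from M101 to M200, 6 of 100 from M201 to M300 and 13 of 106 from M301 to M406. In all, 25 members lay in 7 runs of 2 or more consecutive codes. The 4 printed blocks of the array held 9 of 101, 18 of 102, 15 of 102 and 15 of 101 M codes as members. Every block thus held members, block 1 the fewest.

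At the edge of the rule, the lowest over the 4 arrays of a code's second highest signal-to-noise score was 2.06 for M319, on Wistar replicate 1, and 2.09 for M72, on GK replicate 2. The nearest codes that were left out reached 1.92 (M342, on GK replicate 1) and 1.87 (M392, on GK replicate 2), and each was detected on the other 3 arrays. The border between members and the nearest other codes was therefore narrow.

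The members spanned a wide range of signal on each array. On GK replicate 1 they ran from 317 units through a median of 2521 to 51790, and on GK replicate 2 from 655 through 3118 to 52648. On Wistar replicate 1 they ran from 539 through 5595 to 42816, and on Wistar replicate 2 from 722 through 6587 to 57568. The median member was thus dimmer on both GK arrays than on both Wistar arrays, while the brightest member lay between 42816 and 57568 units on all 4. The top of each range is a saturated code, so it is capped by the scanner. The plot of all member signals by mean share shows the same pattern code by code.

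**Figure D1:**
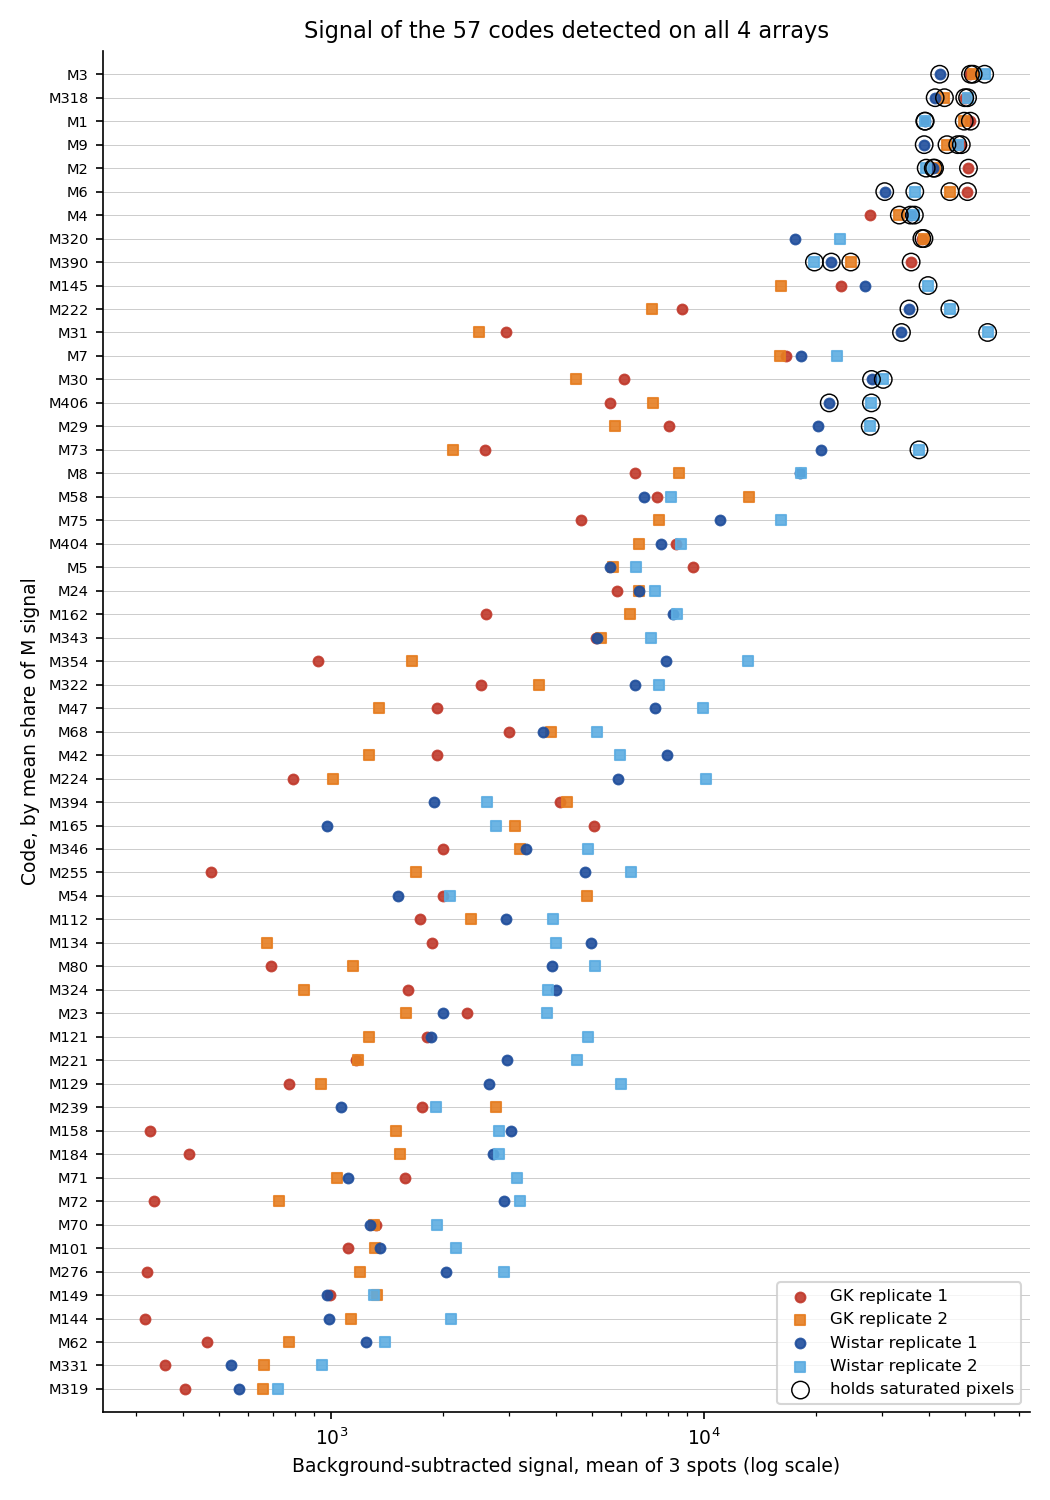
Background-subtracted signal of each of the 57 members (scanner units, log axis), codes ordered from the top by mean share of M signal, with one point per array and a ring where pixels were saturated. The uppermost codes lie close together at the right on all 4 arrays, while further down most GK points lie left of the Wistar points.

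M3 had the highest mean share of the M signal as read. Its signal was 51790 and 52648 units on GK replicates 1 and 2, and 42816 and 56523 on Wistar replicates 1 and 2. The strains overlapped for M3, and between 56.3% and 79.0% of its spot pixels were saturated. M318, the next by mean share, gave 49981 and 44103 units on the GK arrays, against 41638 and 50859 in Wistar. These 2 codes were saturated on all 4 arrays: in 2 or more of the 3 spots the median pixel was at the scanner's upper limit. Accordingly, neither their order nor a fold between strains can be read.

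M1 gave 51748 and 49822 units on the GK arrays, against 39056 and 39155 in Wistar. By the same rule of 2 or more spots it was saturated on the GK arrays alone. On the Wistar arrays, however, 47.0% and 51.3% of its pixels were saturated, so its levels in both strains are lower limits. M9 gave 48932 and 44787 units on the GK arrays, against 38910 and 47877 in Wistar, and M2 gave 51143 and 41487 against 41157 and 39396. As read, the values of the strains overlapped for M9, whereas for M2 both GK values lay just above both Wistar values. By the rule of 2 or more spots, M9 was saturated on Wistar replicate 2, and M2 on every array except GK replicate 2. Over the 4 arrays, however, 36.7% to 64.3% of the M9 pixels and 47.7% to 53.0% of the M2 pixels were saturated. No order of the strains can therefore be read for either code.

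M6 and M320 were high in GK. M6 gave 50842 and 45593 units on the GK arrays, against 30500 and 36718 in Wistar, and it was saturated on GK replicate 2. M320 gave 38359 and 38860 units on the GK arrays, against 17553 and 23202 in Wistar, with 47.0% and 43.0% of pixels saturated in GK and 0% in Wistar. For both codes each GK array lay above each Wistar array. M4 showed the opposite order, with 27922 and 33371 units on the GK arrays, against 35763 and 36622 in Wistar.

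Saturation was limited to a minority of members. Of the 57, 16 had a saturated pixel on at least 1 array and 41 had none on any array. The number with a saturated pixel was 8 and 9 on the GK arrays, against 12 and 15 in Wistar. The stricter state, a median pixel at the upper limit in 2 or more spots, was reached by 4, 4, 3 and 6 members and by 8 members on any array. These were M3, M318, M1, M9, M2, M6, M222 and M31, the last 2 on Wistar replicate 2 alone. A saturated code reads too low, and how this moves the shares and the fitted differences was not tested. Without the codes that hold saturated pixels, the 5 brightest M codes left held 30.3% of the remaining M signal in GK and 17.8% in Wistar. With all M codes these shares were 40.3% and 24.0%. Leaving codes out does not restore their levels.

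The M signal was held by fewer codes on the GK arrays. The 5 brightest codes of each array held 42.0% and 38.6% of the M signal on GK replicates 1 and 2 but 24.4% and 23.6% on the Wistar arrays. The 10 brightest held 70.7% and 63.7% against 44.0% and 41.3%, and the 20 brightest held 84.3% and 77.6% against 66.0% and 62.8%. All of the 20 brightest codes on each array were members. The GK arrays lay above the Wistar arrays at each of the 3 depths, as the cumulative curves show.

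For the 5 brightest codes the share was 40.3% ± 2.44 in GK and 24.0% ± 0.522 in Wistar (SD, n = 2), a difference of 16.3 percentage points. For the 10 brightest it was 67.2% ± 4.95 and 42.6% ± 1.90, a difference of 24.6 points, and for the 20 brightest 80.9% ± 4.74 and 64.4% ± 2.27, a difference of 16.5 points. Each difference was larger than the spread within the strains, but the exact two-sided permutation test gave p = 0.33 for each, which is the smallest value that 2 arrays against 2 allow. A total of 6 and 7 codes made up 50% of the M signal on the GK arrays, against 13 and 14 in Wistar. To reach 90%, the arrays needed 30, 52, 85 and 101 codes.

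**Figure D2:**
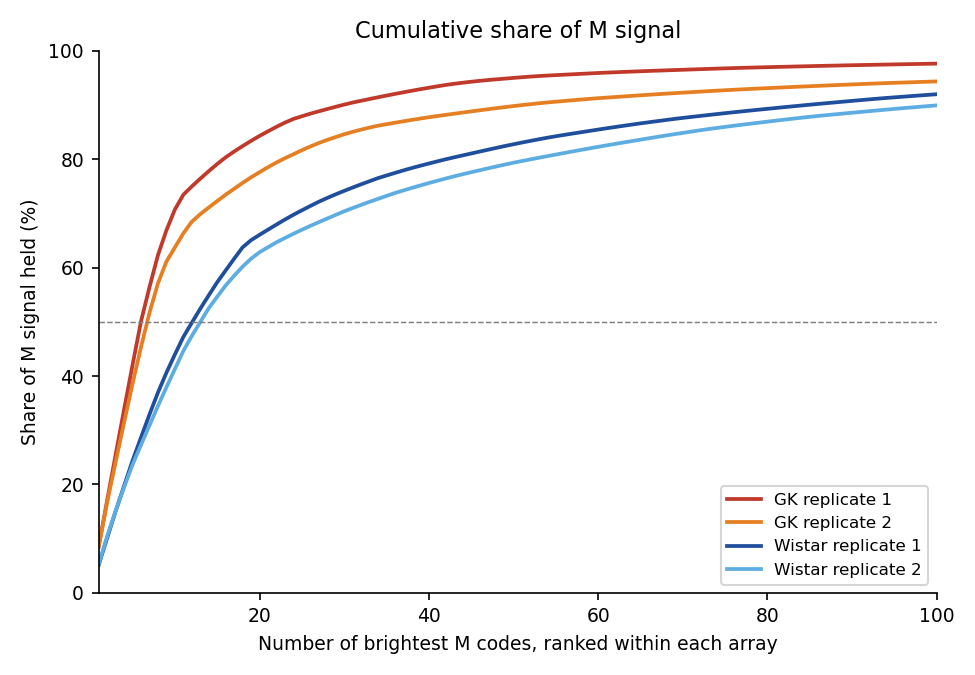
Cumulative share of the M signal (%) against the number of brightest M codes, ranked within each array, with one line per array and a dashed line at 50%. The GK lines have reached 50% by 6 and 7 codes and the Wistar lines by 13 and 14.

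The members as a group held 94.9% and 90.0% of the M signal on the GK arrays, against 81.5% and 78.1% in Wistar. The brightest code that was no member ranked 30th and 25th on the GK arrays, against 30th and 26th in Wistar, and it held between 0.401% and 0.735% of the M signal. Split into 3 groups of 19 by mean share, the brightest members held 70.4% of the M signal on average over the arrays, the middle group 11.7% and the dimmest 4.05%. The codes M1 to M9, which were grouped after their values were seen, held 51.8% and 48.5% of the M signal on the GK arrays, against 32.3% and 27.8% in Wistar. A run of 9 codes thus carried a larger share of the signal on both GK arrays than on both Wistar arrays. The total M signal was lower on both GK arrays, and its part in this larger share was not tested. Of these codes, M1, M2, M3, M6 and M9 held saturated pixels on all the arrays.

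The order of the members was close within a strain and less close between strains. Spearman's rho across the 57 members was 0.91 for the GK pair, 0.97 for the Wistar pair and 0.73 to 0.78 for the 4 pairs of arrays from different strains. These values describe the arrays, since codes on an array share its labelling and hybridization and are not independent. The rank of a member moved by a median of 4 places within GK, of 2 within Wistar and of 7 in each pair of arrays from different strains. The GK arrays shared all 10 of their 10 brightest codes, the Wistar arrays shared 8, and arrays of different strains shared 7. Of the 14 codes among the 10 brightest of any array, 6 were there on all 4.

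Replicates of a typical member lay further apart in GK. The median absolute difference of a member between the arrays of a strain was 0.51 on the log2 scale of unscaled signal in GK and 0.41 in Wistar, and it was 0.75 to 1.18 between arrays of different strains. The widest gap within GK was 2.19, for M158, which read 327 units on GK replicate 1 and 1490 on GK replicate 2. The widest gap within Wistar was 1.50, for M165. The 3 spots of a member had a median SD between 0.16 and 0.21 in log2 units, and one of 0.81 at most, for M255 on Wistar replicate 2. An SD of 3 spots and an absolute difference of 2 unscaled arrays are unlike measures, so these spreads cannot be compared directly.

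Ranked by signal among the 57 members, 22 codes kept a mean rank within 5 places between the strains, 7 were more than 10 places brighter in GK and 11 were more than 10 places dimmer. M165 moved furthest up in GK: it ranked 22 and 29 on the GK arrays, against 54 and 47 in Wistar, a mean difference of 25 places. M394 ranked 24 and 25 on the GK arrays, against 45 and 48 in Wistar. Both codes sat in the middle of the order in GK and near its dim end in Wistar.

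M31 moved furthest down in GK, from ranks 8 and 1 on the Wistar arrays to 26 and 31 on the GK arrays. M224 ranked 28 and 21 on the Wistar arrays and 46 and 50 on the GK arrays. M31 was thus among the 8 brightest members on both Wistar arrays and a code of middle rank in GK. The order among codes saturated on the same array cannot be read.

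**Figure D3:**
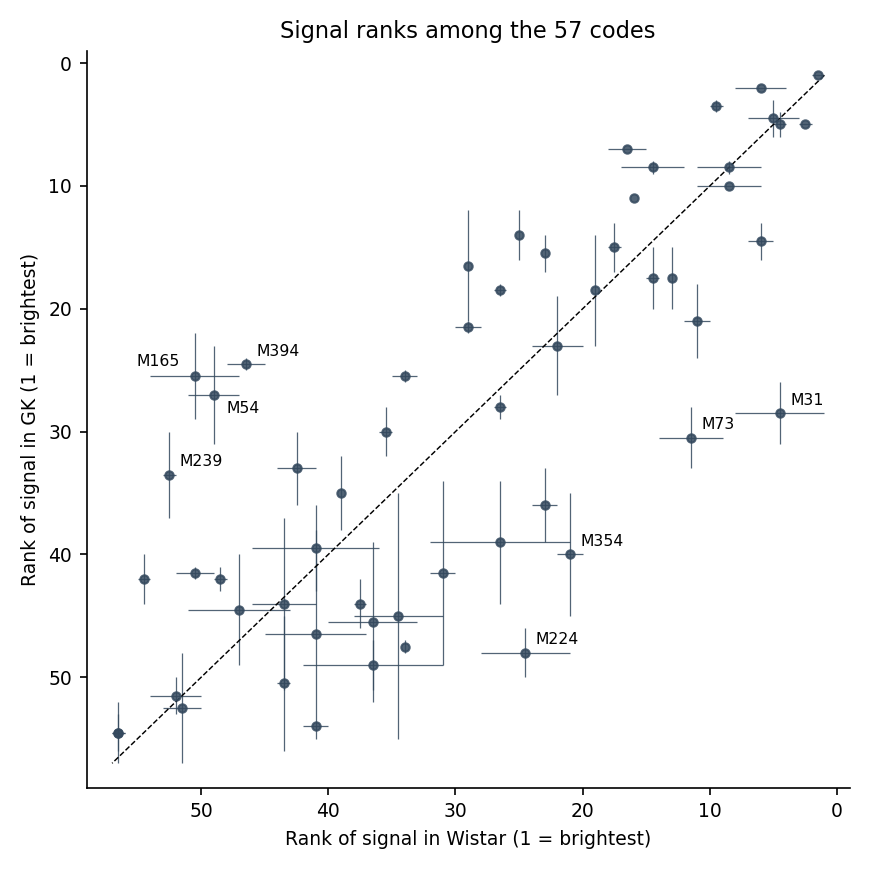
Mean rank by signal among the 57 members in GK against that in Wistar (rank 1 is the brightest), one point per code, with lines spanning the 2 arrays of a strain and a dashed line of equal rank. Codes such as M165 and M394 rank brighter in GK, codes such as M31 and M224 rank brighter in Wistar.

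Before any scaling, most members read lower in GK: 42 of 57 were below 0 and 15 above, with a median difference, GK minus Wistar, of -0.75 on the log2 scale and a range of -4.03 to 1.28. The median was -0.11 in the 16 members with saturated pixels and -0.99 in the 41 without. In RNA from whole samples, fewer cells of a type and less RNA per cell cannot be told apart. The total M signal was also lower on both GK arrays, and its part in these differences was not tested. The strains were compared after quantile normalization of the M codes, which gives all arrays the same distribution of values. The differences below are therefore relative to the other M codes of the same array, and their median over all 406 M codes was 0.05.

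After this normalization 27 of the 57 members (47.4%) passed the threshold between strains: 19 were higher in GK (33.3%) and 8 were lower (14.0%), while 30 did not pass (limma, Benjamini-Hochberg adjusted p under 0.05 over the 122 M codes tested). Over those 122 codes, each detected on the full pair of arrays in GK, in Wistar or in both, 46.7% were called, 18.9% higher and 27.9% lower. The share of members called was thus near that of all tested codes. The median difference was 0.14 over the members and -0.32 over the tested codes, which include codes detected in Wistar alone. Without Wistar replicate 1 there were 16 calls among the members, 11 higher and 5 lower, and without Wistar replicate 2 there were 18, with 11 higher and 7 lower. With all 406 M codes in the test, 15 members were called, 10 higher and 5 lower.

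The 19 higher members differed by between 0.69 and 2.61 in log2 units (median 1.29), and 13 of them differed by 2-fold or more. The 8 lower members differed by -3.35 to -0.63, with a median of -1.65, and 7 of them differed by 2-fold or more. Saturated pixels occurred in 3 of the higher, 4 of the lower and 9 of the other members. By brightness, the 19 brightest members held 5 higher and 4 lower calls, the middle 19 held 7 and 3, and the dimmest 19 held 7 and 1. In the dimmest group the median was 0.83 after quantile normalization and -0.88 before any scaling, so the sign of a typical dim member depended on the scaling.

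**Figure D4:**
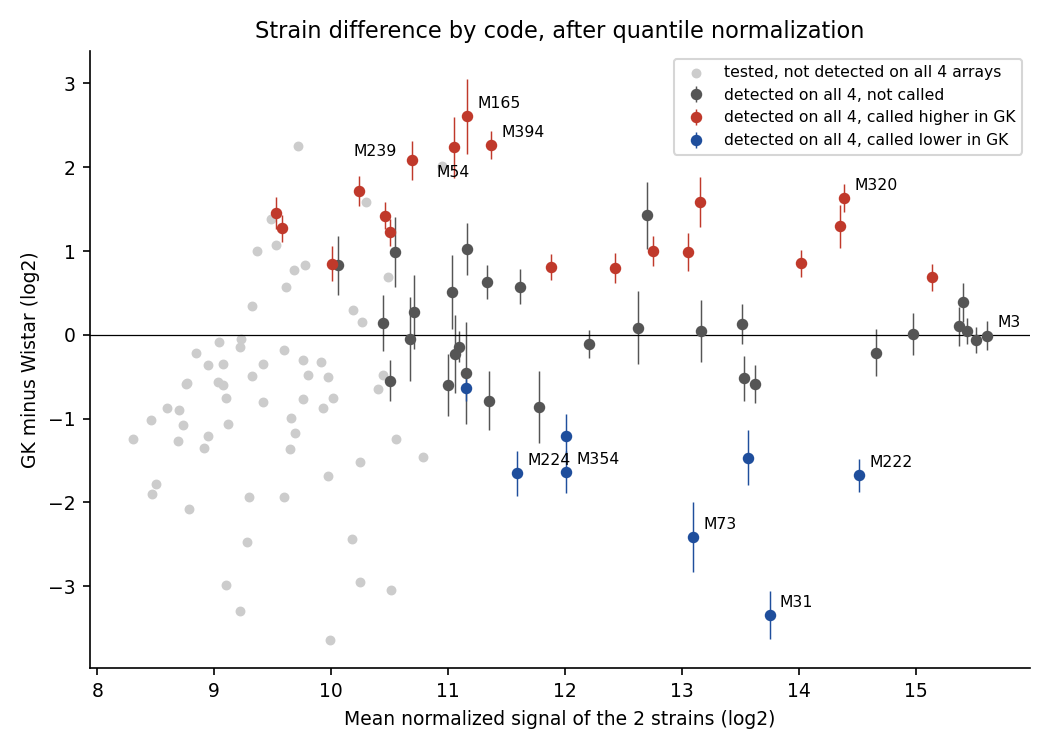
Fitted strain difference of each member (GK minus Wistar, log2 scale after quantile normalization) against its mean normalized level, one point per code with bars of 1 SE. Red and blue points are calls at an adjusted p under 0.05, and pale grey points are tested codes not detected on all 4 arrays. The 19 higher codes spread over most of the range of member brightness, while the 8 lower codes lie in its middle part. Among the members M31 lies furthest from 0.

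M165, M394, M54 and M239 had the largest differences among unsaturated codes higher in GK. M165 read 5077 and 3118 units on the GK arrays, against 974 and 2764 in Wistar, so the GK values were above both Wistar values. After normalization its log2 level was 12.47 ± 0.56 in GK and 9.86 ± 0.60 in Wistar (SD, n = 2), a difference of 2.61 (SE 0.45, 6.09-fold, limma adjusted p = 0.017). M165 was also the code with the widest gap between the Wistar arrays, and it was called higher under each of the 8 scalings tried.

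M394 read 4107 and 4299 units on the GK arrays, against 1890 and 2621 in Wistar. Its normalized log2 level was 12.50 ± 0.08 in GK and 10.24 ± 0.10 in Wistar, a difference of 2.26 (SE 0.17, 4.80-fold, limma adjusted p = 0.0087). The replicates of M394 were close in both strains, and the strains did not overlap before or after scaling. With no scaling the difference was 0.92 and did not pass (limma adjusted p = 0.069).

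M54 read 1996 and 4855 units on the GK arrays, against 1507 and 2077 in Wistar, so the strains overlapped before scaling. Its normalized log2 level was 12.16 ± 0.64 in GK and 9.93 ± 0.11 in Wistar, a difference of 2.24 (SE 0.37, 4.71-fold, limma adjusted p = 0.015). M239 read 1757 and 2761 units on the GK arrays, against 1063 and 1906 in Wistar, and it too overlapped before scaling. Its difference was 2.09 (SE 0.23, 4.24-fold, limma adjusted p = 0.010). For both codes the strains were apart after quantile normalization. With no scaling neither call held, at differences of 0.84 (limma adjusted p = 0.095) and 0.67 (limma adjusted p = 0.20).

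M320 combined high signal with a difference between strains. Its normalized log2 level was 15.20 ± 0.03 in GK and 13.57 ± 0.09 in Wistar, a difference of 1.63 (SE 0.16, 3.10-fold, limma adjusted p = 0.0090), and part of its GK pixels were saturated. With no scaling its difference was 0.94 and did not pass (limma adjusted p = 0.063). M6 was higher by 0.69 (SE 0.16, 1.61-fold, limma adjusted p = 0.032). Of its pixels, 42.7% and 55.3% were saturated on the GK arrays, against 1.67% and 12% in Wistar, so its GK level is capped by the scanner. The M6 call held under 12 of 22 alternatives and was lost whichever array was left out (limma adjusted p = 0.062 to 0.31) and with no scaling (limma adjusted p = 0.32). Among the 8 members with the largest mean share, M6 and M320 were the only ones called after quantile normalization. M319 and M7, given below, were higher too, and the other 11 higher members, M149, M58, M70, M390, M331, M101, M24, M404, M62, M68 and M343, differed by 0.80 to 1.71.

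M31 showed the largest difference of any member after quantile normalization. It read 2939 and 2493 units on the GK arrays, against 33824 and 57568 in Wistar, with 72.3% of its pixels saturated on Wistar replicate 2. Its normalized log2 level was 12.08 ± 0.32 in GK and 15.42 ± 0.35 in Wistar, a difference of -3.35 (SE 0.29, 10.2-fold, limma adjusted p = 0.0087). The Wistar level on that array is capped by the scanner, and the difference ranged from -3.96 to -1.52 over the 8 scalings, with M31 called lower under each. M31 took 0.445% of the M signal on average in GK and 4.66% in Wistar.

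M73 read 2593 and 2116 units on the GK arrays, against 20563 and 37672 in Wistar. On Wistar replicate 2, 21.7% of its pixels were saturated, so its level there is a lower limit. Its normalized log2 level was 11.89 ± 0.26 in GK and 14.30 ± 0.71 in Wistar, a difference of -2.41 (SE 0.42, 5.33-fold, limma adjusted p = 0.017). The strains were far apart before and after scaling. M73 was also called lower under each of the 8 scalings, and of the 8 lower members only M31 and M73 were.

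M224 read 788 and 1011 units on the GK arrays, against 5859 and 10097 in Wistar. Its difference was -1.65 (SE 0.27, 3.15-fold, limma adjusted p = 0.015). M354 read 922 and 1642 units on the GK arrays, against 7884 and 13093 in Wistar, and its difference was -1.64 (SE 0.25, 3.12-fold, limma adjusted p = 0.013). Neither code had a saturated pixel, and each stayed below 0 under all 8 scalings. Scaled to the P codes, however, M224 differed by -0.48 (limma adjusted p = 0.26) and M354 by -0.45 (limma adjusted p = 0.31), and both calls were lost.

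M30 read 6097 and 4528 units on the GK arrays, against 28109 and 30223 in Wistar, with a difference of -1.47 (SE 0.33, 2.76-fold, limma adjusted p = 0.031). On the Wistar arrays 3.33% and 2.67% of its pixels were saturated. M222 read 8716 and 7255 units on the GK arrays, against 35410 and 45592 in Wistar, with a difference of -1.68 (SE 0.20, 3.20-fold, limma adjusted p = 0.011) and saturation on Wistar replicate 2. Both codes were lower in GK on every array, but scaled to the P codes their differences were 0.0083 and 0.12, so the direction flipped there. M30 also lost its call with the authors' value table, with all M codes tested, with grid position as a block and without Wistar replicate 1, where the limma adjusted p was 0.051 to 0.075. M222 also lost its call with the 75th percentile (limma adjusted p = 0.059). The 2 other lower members were M47, at -1.21, and M80, at -0.63.

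M319, the member nearest to the detection threshold, was called higher by 1.45 (SE 0.19, limma adjusted p = 0.012). It read 405 and 655 units on the GK arrays, against 568 and 722 in Wistar, so its unscaled values overlapped, and without scaling its difference was -0.08. Its call was also lost with arrays centred on the median of the M codes (limma adjusted p = 0.24) and with total M signal (limma adjusted p = 0.089). M72, the next nearest, read 336 and 724 units on the GK arrays, against 2898 and 3211 in Wistar. Its normalized difference of -0.55 did not pass (limma adjusted p = 0.15). M72 was, however, called lower under 4 of the 8 scalings. Its difference was -2.23 with no scaling and 0.21 with the P codes.

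The 30 members that did not pass ranged from -0.86 to 1.42, and the normalized values of the strains overlapped in 15 of them. The median half-width of their 95% interval was 0.83, so changes of that size could be missed in many of them. M3 and M4 had the smallest fitted differences, but M3 was saturated on all 4 arrays, where a difference cannot be read. M4 differed by 0.0046, with a 95% interval of -0.70 to 0.71 (limma adjusted p = 0.99), and it had saturated pixels on 3 arrays. Of its pixels, 39.3% and 35.7% were saturated on the Wistar arrays, against 0% and 10% in GK, so its Wistar levels are lower limits. The M4 value also depended on the scaling. It was -0.24 with no scaling, 1.26 with the 75th percentile (limma adjusted p = 0.013) and 2.20 with the P codes (limma adjusted p = 0.00035). M1 did not pass after quantile normalization (limma adjusted p = 0.24), and with saturated pixels on all 4 arrays its fold is not given.

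Of the codes M1 to M9, M6 and M7 were called higher, none was called lower and 7 did not pass. M5 had a difference of 1.42 and did not pass (limma adjusted p = 0.052). M7 read 16551 and 15990 units on the GK arrays, against 18145 and 22676 in Wistar, and its normalized difference was 0.85 (limma adjusted p = 0.020). M7 had no saturated pixel on any array, and its unscaled GK values lay below its Wistar values although its normalized values lay above them.

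The direction of the calls depended on how the arrays were put on a common scale. With no scaling, 24 members were called, 1 higher and 23 lower, where 0.82% of the tested codes were called higher and 64.8% lower. Scaled to the 8 P codes, 40 were called, 38 higher and 2 lower, where 41.8% of the tested codes were called higher and 7.38% lower. The files do not say what the P codes are, and no scaling is known to be the right one for these samples. The median difference over the members moved from -0.67 with no scaling to 1.77 with the P codes.

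Under the 8 scalings, counting quantile normalization and no scaling, 9 of the 19 higher members kept a difference above 0 and 4 of the 8 lower members, M31, M73, M224 and M354, kept one below 0. None of the 27 calls was called in the opposite direction under another scaling. M8, M75, M221 and M322, which were not called after quantile normalization, were called higher under some scalings and lower under others. These 4 codes were chosen after their values were seen.

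**Figure D5:**
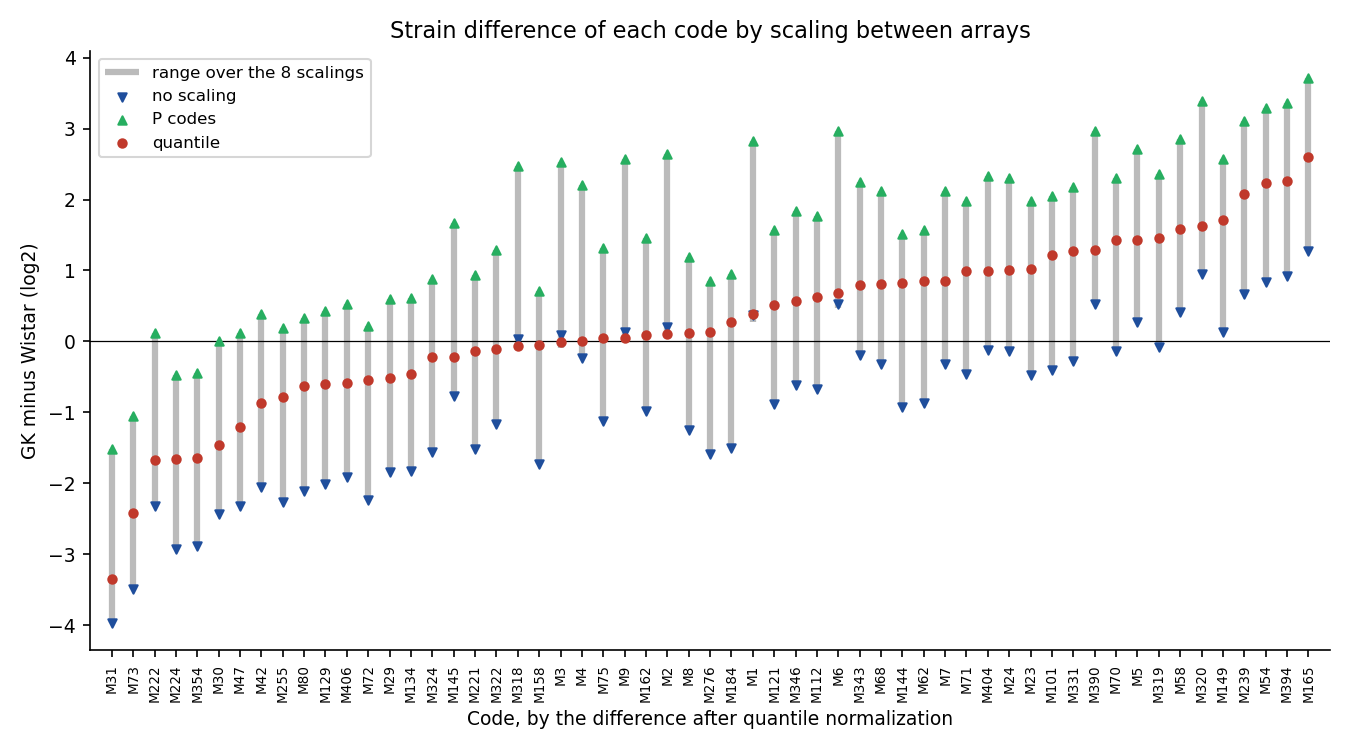
Strain difference of each of the 57 members (GK minus Wistar, log2 scale), ordered by the difference after quantile normalization (red), with the values under no scaling (blue) and P code scaling (green) and a grey bar for the range over the 8 scalings. The bars of M31, M73, M224 and M354 lie wholly below 0. Those of 9 members called higher, M165 among them, and of the uncalled M1, M2, M5 and M9 lie wholly above it. The other bars cross 0.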

How the data were processed

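Per the labels' protocols, total RNA of each strain was Cy5-labelled in a PCR with a dye-bearing primer. The authors deposited linear spot intensity values for foreground and local background, not normalized, with a signal-to-noise score and the percent of saturated pixels, per the file headers. The deposited value table equals the foreground median, with 0 cells differing. The scanner and its settings are not given in those sources.

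Normexp background correction (offset 50, local background mean) was applied to the foreground mean, followed by log2 transformation and quantile normalization over the M codes, leaving out the N, P and B codes. The 3 spots of a code were averaged. Codes detected on the full pair of arrays of 1 strain or more (122 M codes) were fitted together, with strain alone in the model (limma 3.58.1, R 4.3.3; lmFit, eBayes, two-sided, Benjamini-Hochberg, threshold 0.05, 2 residual degrees of freedom, 1.83 added by moderation). Precision is limited by the number of arrays, and the offset understates changes of dim codes. The fit was tested on simulated data with the same spread for every code, which covered neither the scaling between arrays nor saturation.

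Codes were named by rule: the 8 largest mean shares, the 4 largest unsaturated called differences each way, the 2 largest rank shifts each way, the 2 smallest differences, the 2 codes on each side of the detection threshold, and every saturated member. Saturated means here a median pixel at the upper limit in 2 or more spots of an array, so M73 and M30 counted as unsaturated. Other named codes were chosen after their values were seen. The members and lists were chosen with earlier results of these data known. Alternatives varied background, scaling, filter, spot average, variance model, blocks and arrays.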

Additional observations from a re-analysis of the deposited data

How the results depend on the processing

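Counts of called members (27, 19 higher and 8 lower in the report) were within 1.5 times under most settings. With no scaling there were 1 higher and 23 lower; with the 75th percentile 5 lower; with arrays centred on the M code median 8 higher and 15 lower; with the P codes 38 higher and 2 lower; with total M signal, a setting added after seeing the data, 15 lower. With all 406 M codes tested, 15 were called, 10 higher and 5 lower. Without codes holding saturated pixels, 4 were lower. Leaving out 1 array at a time gave 16 to 28 calls, 11 to 19 higher and 5 to 9 lower, where the lone array is assumed to vary like the other strain. The median difference over the members, 0.14, became -0.67 with no scaling, 0.83 with the 75th percentile, -0.10 with that M code median, 0.39 with the median of the members, 1.77 with the P codes, -0.023 with total M signal, 0.63 without saturated codes, and 0.074 to 0.51 with 1 array left out. The cause was not tested.

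Fitted values of single codes changed sign under some scalings. M3 became 1.59, 1.14, 2.53 and 0.73, and M318 1.53, 1.08, 2.47 and 0.67, with the 75th percentile, the median of the members, the P codes and total M signal. Both were saturated on all 4 arrays, so these are fitted values from which no strain difference can be read. With the P codes M30 became 0.0083 and M222 0.12, and with no scaling M319 became -0.081.

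The share held by the 5 brightest codes, 40.3% in GK, became 46.4% with foreground medians, 43.6% of the members' signal alone and 30.3% without saturated codes. In Wistar, 24.0% became 23.2% without background subtraction, 29.3%, 30.1% and 17.8%. The members' share became 93.0% with foreground medians and 62.8% without saturated codes. The rule gave 84 members with a score above 1, 47 above 3, 50 with all 3 spots required, and 59 to 66 with 1 array left out.

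The replicate numbers are not known to pair the arrays: deviations of same-numbered arrays correlated at 0.02 over the tested codes, -0.13 over the members and 0.14 over all M codes. With the replicate block there were 17 calls, 11 higher and 6 lower, and M165 was not among them (limma adjusted p = 0.053). The crossed pairing, in which GK replicate 1 and Wistar replicate 2 also shared a similar position of the spot grid, gave 22 calls, 16 higher and 6 lower.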
